A study of Mus musculus with 4 samples.

Results

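The T-box genes encode transcription factors that share a DNA-binding domain, the T-box, and that mark position and tissue identity in the embryo. The 8 described here are Tbx1, Tbx2, Tbx3, Tbx4, Tbx5, Tbx15, Tbx18 and Tbx20, taken by name from a table of 54842 gene identifiers after the identifiers had been matched to symbols. All 8 were found, each as 1 row. The choice used no measured value of the table, but it was made with earlier results of these data known.

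Total RNA libraries, with ribosomal RNA removed, were made from untreated mouse embryonic fibroblasts (MEF cells). There were 2 libraries of wt MEF cells, labelled as wild-type controls, and 2 libraries of MEF cells that are null for Top2β, the topoisomerase that relieves DNA torsion during transcription throughout the cell cycle. The study used these cells to ask whether DNA topology bears on the transcription of major satellite repeats, and the T-box genes are described here from the same libraries. The labels give neither strain nor embryonic stage and do not say whether libraries of a genotype came from separate cultures, so that p-values measure the spread between these libraries, which may be technical. The methods name the Top2β-null MEF cells, derived from null mice, as a gift of other laboratories, and loss of Top2β and origin of the cells cannot be told apart.

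T-box genes are known for dividing the embryo into regions. Tbx5 and Tbx4 mark the forelimb and the hindlimb field, Tbx3 and Tbx2 act mainly as repressors at limb margins and in the cardiac conduction system, and Tbx1 patterns the pharyngeal apparatus and the outflow tract of the heart. Tbx15 acts in the skeleton and skin of the trunk and limbs, Tbx18 in the epicardium, the sinus node and the anterior part of each somite, and Tbx20 in the chambers and valves of the heart. Tbx2 and Tbx4 are neighbours on chromosome 11, as Tbx3 and Tbx5 are on chromosome 5, and each pair arose by tandem duplication followed by duplication of the cluster. Fibroblasts keep part of such a positional code in culture.

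The total counts per library were between 133116830 and 149647278, and 1 count was worth 0.966 to 1.04 normalized counts. A normalized count is a count brought by edgeR's TMM factors to a common library size. Top2b, the targeted gene, fell from 18259 and 18465 to 3879 and 3789 normalized counts, in the direction of the labels. Of 9 fibroblast markers, 8 had a mean over 100 normalized counts, Col1a1 and Vim among them, while Lum had 1 to 4 counts in every library. The summed fibroblast markers were between 872018 and 887929 normalized counts in wt MEF cells and between 547611 and 552820 in Top2β-null MEF cells, a sum made up mostly of the collagens Col1a1 and Col1a2 and of Vim. The markers did not move together: 2 were called lower (Col1a1, 2.60-fold, and Col3a1, 2.01-fold) and 4 higher (Dcn, 31.8-fold, Thy1, 4.21-fold, Pdgfrb, 3.68-fold, and Pdgfra, 2.24-fold). In bulk RNA, fewer cells that express a gene and less RNA per cell cannot be told apart.

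The set of T-box genes that MEF cells expressed differed between the genotypes. Tbx3 was 10.6-fold and Tbx15 7.38-fold higher without Top2β, while Tbx20 was 9.15-fold lower and Tbx1 fell from 1244 and 1262 counts to 2 and 0 counts. Tbx18 was 1.31-fold lower. Tbx2 stayed below 50 normalized counts in every library, and Tbx4 and Tbx5, the limb field genes, were at or below 2 counts in every library.

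Sequences upstream of the start are shown for Tbx1 and Tbx20, the members with the largest decreases, with every base upstream of the annotated start and outside annotated exons. They come from RefSeq's promoter table for GRCm38.p6, in which 4 members (Tbx1, Tbx4, Tbx18 and Tbx20) had an entry. Tbx1 has 2 starts in that table, of which the outer is also the first base of a GENCODE transcript. Each window holds the 250 bases before the start, on the reverse strand, written in the direction of transcription. Capitals mark the GC box, GGGCGG or its complement, to which Sp1-type factors bind.
Tbx1, outer start, chr16:18590672-18590921: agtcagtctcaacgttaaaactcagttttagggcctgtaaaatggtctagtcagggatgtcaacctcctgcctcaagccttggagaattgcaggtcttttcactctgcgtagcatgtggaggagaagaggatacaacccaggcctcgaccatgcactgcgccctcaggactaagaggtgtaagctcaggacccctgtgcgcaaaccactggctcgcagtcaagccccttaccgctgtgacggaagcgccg
Tbx1, inner start, chr16:18588900-18589149: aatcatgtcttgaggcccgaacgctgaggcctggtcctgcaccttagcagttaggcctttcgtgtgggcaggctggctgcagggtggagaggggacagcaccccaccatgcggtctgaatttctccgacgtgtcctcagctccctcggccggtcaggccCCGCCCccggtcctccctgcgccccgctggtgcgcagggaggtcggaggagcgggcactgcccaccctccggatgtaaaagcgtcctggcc
Tbx20, chr9:24774304-24774553: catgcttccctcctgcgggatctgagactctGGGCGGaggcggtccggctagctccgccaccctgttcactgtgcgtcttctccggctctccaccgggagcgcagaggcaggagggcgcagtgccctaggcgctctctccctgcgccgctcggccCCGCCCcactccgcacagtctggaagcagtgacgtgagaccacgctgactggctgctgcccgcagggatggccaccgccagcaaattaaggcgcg

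The Tbx20 window held 2 GC boxes and the inner Tbx1 window 1, and 32.7% of the 32851 windows in the table held at least 1 on either strand. None of the 3 windows held the T-box half-site GGTGTGA, the TATA box TATAAA or the GATA motif AGATAA on either strand, letters found in 3.33%, 12.4% and 9.99% of all windows. These 3 windows held 10 and 17 CpG at the starts of Tbx1 and 22 at Tbx20, against a median of 6 over all windows. Tbx18, which was lower by much less, had 15 CpG and none of the 4 motifs in its window, all 250 bases of which lie in annotated exons. Tbx4, at the floor in both genotypes, had 6 CpG, 1 GC box and 1 TATA box.

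Tbx3 encodes a repressor that is needed for limb, mammary and conduction system development and that holds back senescence in cultured fibroblasts. The gene is read forward along chromosome 5 (119670669 to 119684724). In wt MEF cells Tbx3 was at 446 and 476 normalized counts, and in Top2β-null MEF cells at 4741 and 5081. Both Top2β-null libraries lay far above both wt libraries. This made a log2 fold change of 3.41 with a standard error of 0.0545. Its adjusted p was 1.9e-17 (edgeR quasi-likelihood fit, Benjamini-Hochberg adjustment across 26566 genes and repeat families).

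Tbx15, known for its part in the skeleton, the skin pigment pattern and fat depots of the trunk, had the highest level per kilobase of exon among the members in both genotypes. Its gene is read forward along chromosome 3 (99240381 to 99354259). Tbx15 stood at 2571 and 2478 normalized counts in wt and at 18841 and 18433 in Top2β-null MEF cells. The groups were separated by far more than the difference within either. On the log2 scale the increase was 2.88 with a standard error of 0.0296, and the same edgeR fit gave an adjusted p of 1.2e-19.

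Tbx20 encodes a factor of the developing heart that is required for chamber growth. It is read in reverse along chromosome 9 (24718138 to 24774303). In wt MEF cells there were 3218 and 3134 normalized counts of Tbx20, and 353 and 341 without Top2β. The remaining level was low but well above counting noise in both Top2β-null libraries. The log2 fold change of -3.19 had a standard error of 0.0557 and, in the edgeR fit, an adjusted p of 5.4e-17.

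Tbx1 encodes a factor of the pharyngeal arches, whose human counterpart lies in the region deleted in DiGeorge syndrome. It is read in reverse along chromosome 16 (18580979 to 18590671). After scaling, its wt level was 1256 and 1219 normalized counts, against 2.07 and 0 in Top2β-null MEF cells. Both wt libraries were thus high, and neither Top2β-null library was above the floor of 3 counts, which is worth 3.11 and 2.97 normalized counts there. The ratio of wt to Top2β-null counts, at equal effective library size, was 1222 with an exact 95% interval of 338 to 10092 that covers counting error only. Tbx1 passed the filter on low counts through its wt libraries alone, so its call is given as a description, and its fitted log2 fold change, which depends on the prior count, is not given as a fold.

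Tbx18, a relative of Tbx15 that marks the epicardium, was the member whose level moved least among those with a mean over 100 normalized counts. It is read in reverse along chromosome 9 (87702800 to 87731260). Its normalized counts were 2462 and 2516 in wt and 1911 and 1876 in Top2β-null MEF cells. The groups did not overlap, and the adjusted p of the edgeR fit was 6.9e-07. The log2 fold change of -0.39, with a standard error of 0.0435, lay within the limit of 1 that the study's methods set.

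Tbx2 encodes a repressor closely related to Tbx3 and was weakly expressed. It is read forward along chromosome 11 (85832551 to 85841948). Its counts were 42 and 22 in wt and 3 and 13 in Top2β-null MEF cells. The Top2β-null libraries lay below the wt libraries, but the replicates of each genotype were themselves far apart. The fitted log2 fold change was -1.95 with a standard error of 0.521. It was -1.25 without Top2β-null replicate 1 and -3.28 without Top2β-null replicate 2. Its mean of 19.9 normalized counts lies under the study's limit of 100, and only its wt libraries both had the 10 counts that the filter asks for, so these values are a description.

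Tbx4 (chromosome 11, from 85886422 to 85916097, forward strand) and Tbx5 (chromosome 5, from 119832668 to 119885219, forward strand) did not pass the filter. Tbx4 had 0 and 2 counts in wt MEF cells and 0 in both Top2β-null libraries. Tbx5 had 0 counts in both wt libraries, and its Top2β-null libraries had 0 and 1. A count of 0 allows up to 3 counts, or 2.90 to 3.11 normalized counts per library, so a difference between the genotypes was not detectable at this depth.

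**Figure D1:**
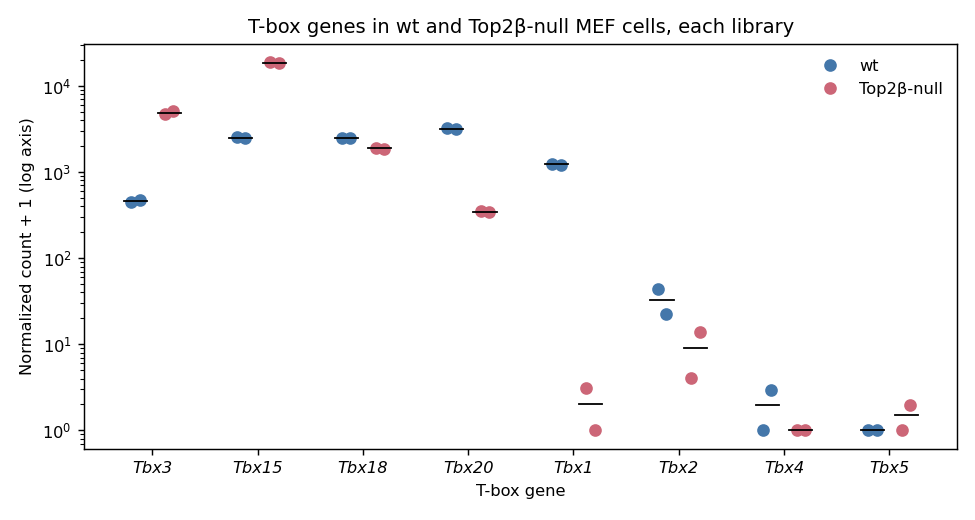
Normalized counts (plus 1, log axis) of the 8 T-box genes in each of the 2 wt and 2 Top2β-null libraries. Points are libraries and black lines group means. Tbx3 and Tbx15 are higher and Tbx20 and Tbx1 lower in both Top2β-null libraries, Tbx18 lies close together in all 4, and Tbx4 and Tbx5 lie at the bottom of the axis.

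A gene was called where it passed the 3 limits of the study's methods. Its adjusted p had to lie below 0.05, its log2 fold change had to exceed 1 in size, and its mean had to exceed 100 normalized counts. Of the 8 members, 2 were called higher (Tbx3 and Tbx15) and 2 lower (Tbx1 and Tbx20), 2 were tested and not called (Tbx2 and Tbx18), and 2 were not tested. Over the 25085 genes tested, 5.52% were called higher and 5.25% lower. By the adjusted p alone, all 6 members tested differed between the genotypes, as did 66.4% of all genes tested. The groups did not overlap for these 6 members, as was the case for 81.9% of all genes tested, so both counts were read against these shares and not as a result about the members.

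**Figure D2:**
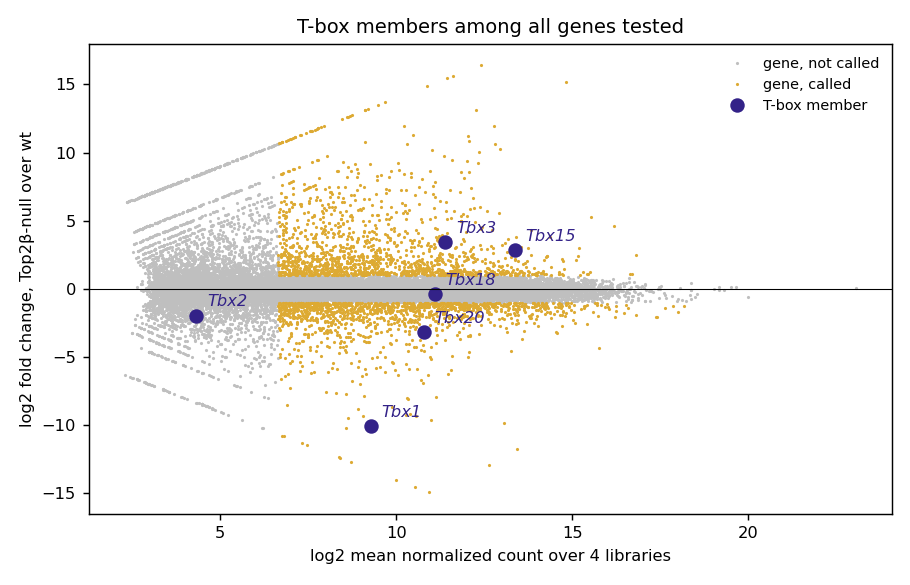
Log2 fold change of Top2β-null over wt MEF cells against the log2 mean normalized count for the 25085 genes tested, with the 6 T-box members tested in dark blue. Yellow points are genes called higher or lower. Tbx3 and Tbx15 lie among the genes called higher at high mean counts, Tbx20 and Tbx1 among those called lower, and Tbx18 close to 0.

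Levels of different genes were compared per kilobase of annotated exon, after division by the effective library size. In wt MEF cells the order of levels was Tbx15 (4.79 ± 0.124, SD, n = 2), Tbx18 (3.75 ± 0.0580), Tbx1 (2.5 ± 0.0523), Tbx20 (1.88 ± 0.0349), Tbx3 (0.495 ± 0.0228) and Tbx2 (0.0624 ± 0.0293), with Tbx4 and Tbx5 at or near 0. Neighbours in this order from Tbx15 to Tbx2 differed by more than their spread. In Top2β-null MEF cells Tbx15 was first again (35.4 ± 0.547, SD, n = 2), and Tbx3 came second (5.27 ± 0.258), ahead of Tbx18 (2.85 ± 0.0372) and Tbx20 (0.206 ± 0.00522). Tbx2 was at 0.0157 ± 0.0135 per kilobase there, and Tbx1, Tbx4 and Tbx5 were at the floor, so these last 4 were not separated. The exons of Tbx20 add up to 11997 bases over all its isoforms, against 3401 to 6624 in the other members, which lowers its level on this scale if the shorter isoforms prevail.

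Summed over the 8 members, the level per kilobase was 13.5 ± 0.157 (SD, n = 2) in wt cells and 43.7 ± 0.321 in Top2β-null cells, a 3.24-fold difference. In wt MEF cells 4 members shared most of this sum: Tbx15 made up 35.5% ± 0.505, Tbx18 27.8% ± 0.753, Tbx1 18.5% ± 0.173 and Tbx20 14.0% ± 0.0969 (SD, n = 2). In Top2β-null MEF cells Tbx15 alone made up 80.9% ± 0.659 and Tbx3 12.1% ± 0.678, and Tbx18 was left with 6.53% ± 0.0373. Tbx20 made up 0.470% ± 0.00849 there.

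**Figure D3:**
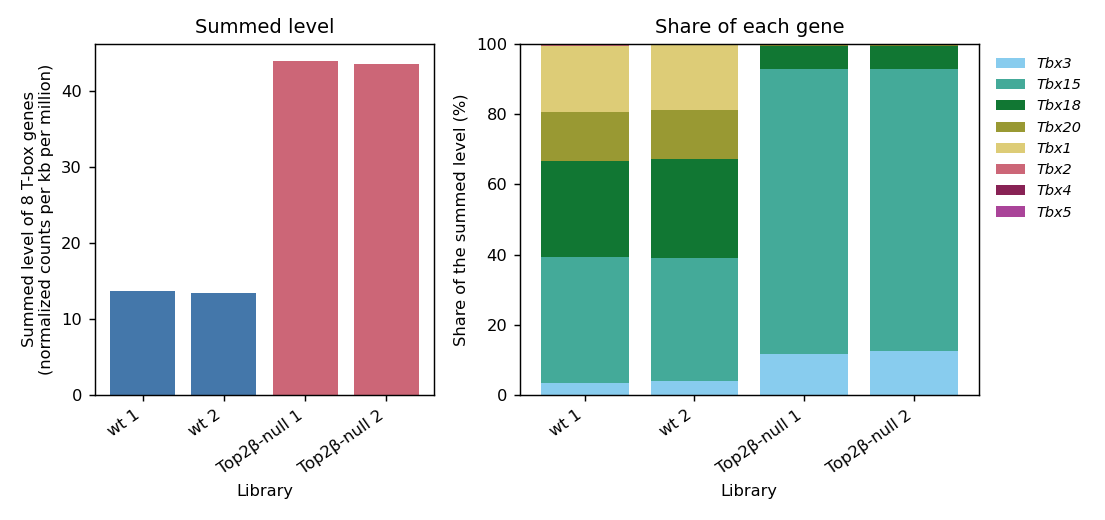
Left, the level per kilobase summed over the 8 T-box genes in each library. Right, the percentage of this sum held by each gene. In the 2 wt libraries Tbx15, Tbx18, Tbx1 and Tbx20 share the sum, whereas Tbx15 holds over 80% of it in both Top2β-null libraries.

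Tbx15 and Tbx18 are the closest relatives of each other in the family and are often expressed in the same mesenchyme. Their ratio within a library needs no scaling between libraries. The log2 ratio of Tbx15 to Tbx18 counts was 0.0625 and -0.0218 in the wt libraries, so that their counts were nearly equal. It was 3.30 in both Top2β-null libraries. The difference of 3.28 was far larger than the replicate SD of 0.0596 in wt cells and 0.00351 in Top2β-null cells (p = 0.33 by a two-sided exact permutation test, which cannot go lower with 2 libraries against 2). The ratios of Tbx2 to Tbx3 and of Tbx4 to Tbx5 were not formed, because a gene of each pair had fewer than 4 counts in a library.

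Of the other 9 T-box genes of the mouse, 5 passed the filter and none was called by the 3 limits. Mga, whose product joins a T-box to a Myc-like dimerization domain and acts in a repressive Polycomb complex, was the most abundant. Mga was at 12705 and 12962 normalized counts in wt and at 18495 and 18421 in Top2β-null MEF cells. Its log2 fold change was 0.52 (adjusted p = 1.5e-11, edgeR fit). Eomes, a regulator of mesendoderm and of lymphocytes, was close to the floor with 14 and 6 counts in wt cells against 28 and 45 in Top2β-null cells (fitted log2 fold change 1.89). Only its Top2β-null libraries both had the 10 counts that the filter asks for, so these values are a description. Tbr1 (155 and 199 against 140 and 142 normalized counts), Tbx6 (52.5 and 74.4 against 83.9 and 82.2) and Tbx10 (27.3 and 30.9 against 30.0 and 9.90) had adjusted p of 0.063, 0.14 and 0.27 in this edgeR test. T, Tbx19, Tbx21 and Tbx22 had at most 4 counts in any library. DESeq2 called none of the 9 either. At an unadjusted p below 0.05 in the edgeR fit, 2 were higher (Mga and Eomes) and 1 was lower (Tbr1), against 68.9% of all genes tested, so the count is no result about these genes.

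Partners and upstream genes of the T-box factors were listed as 22 genes, and 11 passed the filter. Of the 11, 4 were called higher and 2 lower, where 5.52% and 5.25% of all genes tested were called. The GATA factors, which work with Tbx5 and Tbx20 at heart genes, moved in opposite directions: Gata4 had 6 and 3 counts in wt cells against 1446 and 1538 in Top2β-null cells, while Gata6 had 1405 and 1340 counts in wt cells against 146 and 158 in Top2β-null cells. The log2 fold change of Gata6 was -3.14 with a standard error of 0.0811 (adjusted p = 7.4e-15, edgeR fit). Gata4 passed the filter on low counts through its Top2β-null libraries alone, so its call is given as a description, with mean levels of 4.48 normalized counts in wt cells and 1510.4 in Top2β-null cells. Neither pair of groups overlapped, and Gata4 was almost silent in wt MEF cells while Gata6 kept part of its level in Top2β-null MEF cells.

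Mef2c, a muscle and heart factor that can act with T-box proteins, rose from 15 and 11 to 637 and 664 counts (log2 fold change 5.67, standard error 0.153). Shox2, which acts in the sinus node, as Tbx3 and Tbx18 do, and in the proximal limb, rose by 2.85 on the log2 scale, from 197 and 156 to 1265 and 1282 normalized counts. Foxc1, an activator of Tbx1 in the pharyngeal region, rose by 1.46, and its relative Foxc2 had a log2 fold change of -0.24. Wnt5a, a ligand of limb outgrowth, was lower by 2.64 on the log2 scale, with 3404 and 3549 counts in wt cells against 556 and 533 in Top2β-null cells. The adjusted p of these 4 called genes lay between 3.4e-16 and 4.6e-14 in the edgeR test.

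No other partner was called. Fgf10, the limb and lung growth factor that Tbx4 and Tbx5 are known to induce, had 446 and 498 counts in wt cells against 261 and 316 in Top2β-null cells (log2 fold change -0.67). Bmp4 had a log2 fold change of -0.38, Smarcd3 of 0.13 and Wnt2b of 0.016. Isl1, Hand2, Sall4, Bmp2 and Shh had 0 counts in all 4 libraries, and Pitx1, the hindlimb factor upstream of Tbx4, had at most 4 counts in any library. The limb field genes and the heart field factors Isl1, Hand2 and Nkx2-5 were thus at or close to the floor in both genotypes, Nkx2-5 with at most 6 counts.

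Among 11 genes known to be controlled by T-box factors, 9 passed the filter, none was called higher by edgeR and 2 were called lower, where 5.52% and 5.25% of all genes tested were called. At an unadjusted p below 0.05 in the edgeR fit, 2 were higher and 4 lower, a share near the 68.9% of all genes tested. Cdkn1a, the cell cycle inhibitor p21 that Tbx2 and Tbx3 are known to repress, had 1153 and 1081 counts in wt cells against 373 and 414 in Top2β-null cells, with a log2 fold change of -1.47 and a standard error of 0.0729 (adjusted p = 3.1e-11, edgeR fit). Gja1, a gap junction gene that the same factors are known to repress in the heart, went from 35702 and 36482 to 15743 and 16923 counts (log2 fold change -1.11, standard error 0.0263, adjusted p = 2.6e-15, same test). Both groups were well separated in each case. Cdkn2a, which encodes p16 and p19Arf and is another known target of both repressors, had a log2 fold change of -0.53, inside the limit of 1.

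Mycn was at 0 in both wt libraries and had 70 and 53 counts in the Top2β-null libraries, at least 21.1-fold higher against a floor of 3 counts per library, with a mean under the limit of 100. Mycn passed the filter through its Top2β-null libraries alone, so its values and its place among the genes higher by unadjusted p are a description. Nppa, Gja5 and Hcn4, heart genes known to be controlled by T-box factors, had log2 fold changes of -0.30, -0.12 and 0.028 with adjusted p between 0.20 and 0.93 in the edgeR test. Cdh1, at 19 and 24 against 7 and 9 counts, passed the filter through its wt libraries alone and was too weakly expressed to be called. Over the 20 genes tested in both lists, DESeq2 called 4 higher and 4 lower, as edgeR did, and the median log2 fold change was -0.18 in the edgeR fit, against -0.0058 over all genes tested.

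**Figure D4:**
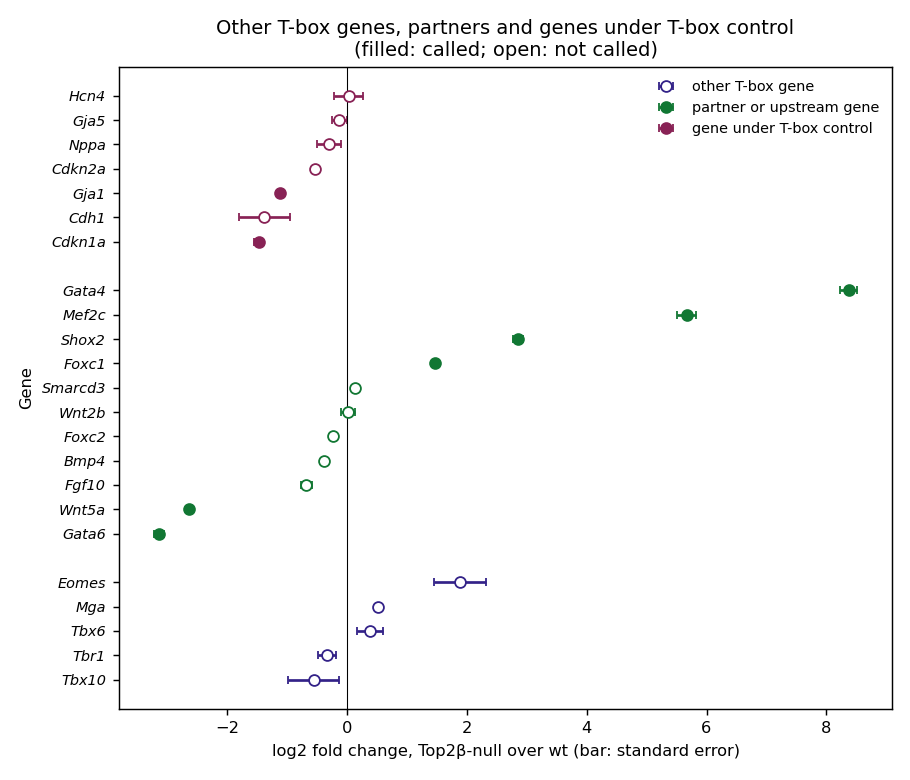
Log2 fold change of Top2β-null over wt MEF cells with its standard error for the other T-box genes, the partner and upstream genes and the genes under T-box control that were tested, were above the floor in both genotypes and are reported here. Filled points are called. Gata4 and Mef2c lie farthest to the right and Gata6 and Wnt5a farthest to the left, and none of the other T-box genes is called.

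The surroundings of the members were described from the genes within 250 kb of a member's gene body in GENCODE M21 on GRCm38. Of 70 such genes that are not members, 34 were tested, 3 were called higher and 1 lower, where 5.52% and 5.25% of all genes tested were called. Of the 3, Tbx3os1 and Gm43120 overlap a called member. At Tbx3, the antisense gene Tbx3os1 shares 697 bases with Tbx3 and starts 0.696 kb inside it. It had 12 and 21 counts in wt cells against 194 and 213 in Top2β-null cells, which made a log2 fold change of 3.65 with a standard error of 0.227 (adjusted p = 5.6e-10, edgeR fit). Tbx3os2, which lies just behind Tbx3, had 0 and 1 counts in wt cells against 6 and 15 in Top2β-null cells. On the far side of Tbx5, Rbm19 had a log2 fold change of -0.025.

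At Tbx15, the antisense gene Gm43120 lies inside the gene over 6588 bases. It had 202 and 203 counts in wt cells against 1258 and 1308 in Top2β-null cells, which made a log2 fold change of 2.70 with a standard error of 0.0708 (adjusted p = 9.0e-15, edgeR fit). Wars2, the next protein-coding gene upstream, had a log2 fold change of 0.090. D030062O11Rik, which overlaps the start of Tbx18 on the other strand, had a log2 fold change of -0.35 beside the -0.39 of Tbx18. The libraries were made with a stranded kit, but the strand setting of the counting is not given in the sources used here, so reads of a member and of its antisense partner cannot be told apart.

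At Tbx1, the neighbours had no such decrease. Of 17 neighbours tested with edgeR, none was called lower, and 1, 2510002D24Rik, was called higher (log2 fold change 2.16). At an unadjusted p below 0.05, 6 were higher and 4 lower, a share below the 68.9% of all genes tested. Gp1bb and Sept5, the pair that starts upstream of Tbx1 on the same strand, had log2 fold changes of 0.78 and 0.84, and Gnb1l on the other side one of -0.14. At Tbx2, the gene 2610027K06Rik, which starts 0.328 kb away in the opposite direction, had 91 and 95 counts in wt cells against 33 and 37 in Top2β-null cells (log2 fold change -1.37, adjusted p = 5.3e-05, edgeR test). Bcas3, which starts farther upstream and overlaps 2610027K06Rik on the opposite strand, was called lower with a log2 fold change of -1.34. As the strand setting is not given, reads of Bcas3 and 2610027K06Rik cannot be told apart where they overlap. Brip1 beyond Tbx4 had a log2 fold change of 0.17. At Tbx20, Dpy19l1 was the nearest protein-coding gene above the filter, with a log2 fold change of 0.57.

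**Figure D5:**
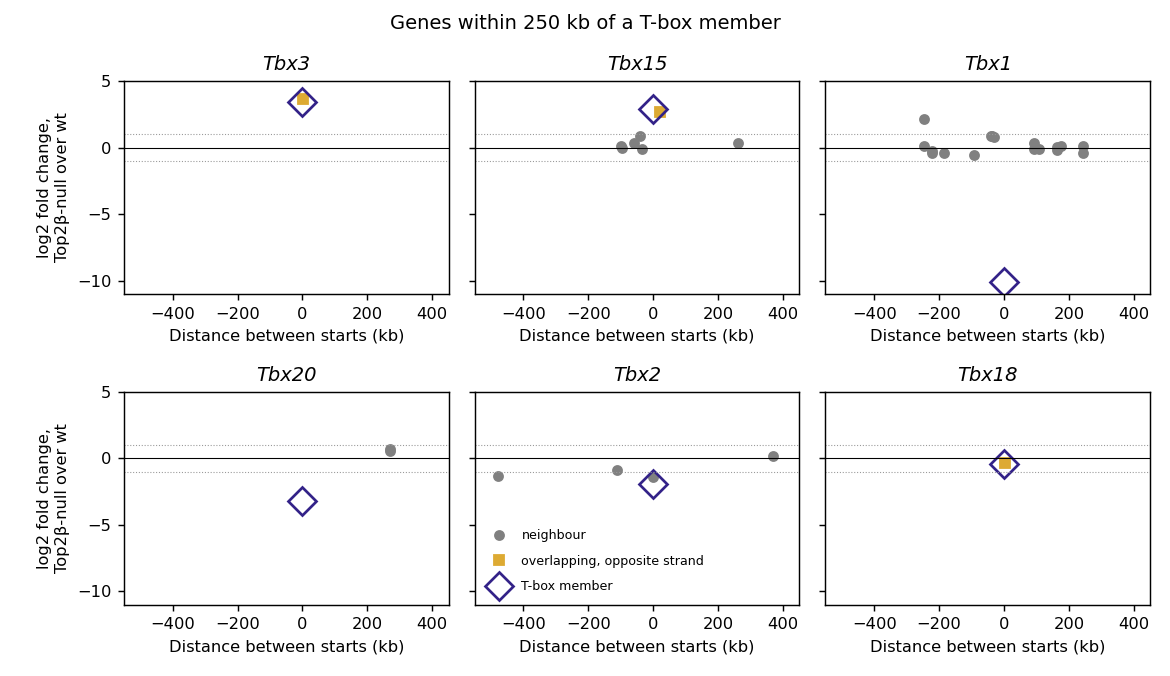
Log2 fold change of Top2β-null over wt MEF cells for tested genes within 250 kb of a T-box gene body, against the distance between start sites (positive in the member's direction of transcription). Open diamonds are the members, yellow squares genes that overlap a member on the opposite strand, grey points the other neighbours, and dotted lines mark an absolute log2 fold change of 1. Tbx1 lies far below its 17 neighbours, whereas the antisense genes at Tbx3 and Tbx15 lie next to the member.

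Markers of cell types in which T-box genes are known were summed by list, and not all markers of a list moved alike. The 6 markers of epicardium and mesothelium summed to between 16776 and 17228 normalized counts in wt and between 2400 and 2458 in Top2β-null MEF cells. This sum was almost all Msln, which had a log2 fold change of -3.17, and Krt19. The defining markers Wt1, Tcf21, Upk3b and Upk1b were at 6 counts or fewer in both wt libraries, and Wt1 had 0 counts there and 58 and 48 in the Top2β-null libraries. The part of such cells in the lower Tbx18, Tbx20 and Tbx1 was not tested. The 6 cardiomyocyte markers summed to between 791 and 796 normalized counts in wt and between 770 and 827 in Top2β-null MEF cells, most of it Tnnt2. Tnni3 had 29 and 27 counts in wt and 88 and 111 in Top2β-null MEF cells, with Myh6 and Myh7 at 0 in the wt libraries and at most 3 counts in the others. Of 4 skeletal myoblast markers, 3 had 0 counts in every library and Myod1 had 1 count in 1 library. The summed markers of neural crest and glia were between 190 and 220 normalized counts in wt cells and between 77.3 and 120 in Top2β-null cells, with Foxd3 at 0, and those of epithelium between 67.6 and 70.5 and between 19.7 and 19.8. Endothelial markers summed to between 162 and 165 in wt cells and between 252 and 258 in Top2β-null cells. Of these, Kdr was called higher, from 71.7 and 68.6 to 203 and 205 normalized counts, while Tek had 43.4 and 34.8 in wt cells against 9.32 and 3.96 in Top2β-null cells and neither Pecam1 nor Cdh5 passed the test (log2 fold changes -0.50 and -0.16). The leukocyte markers stayed below 8 normalized counts in every library. The part of these cell types in the T-box values was not tested.

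The genes whose profile over the 4 libraries came closest to a called member were found by Euclidean distance between log2 normalized counts (plus 1), each centred on its own mean, over 12148 other protein-coding genes with a mean over 100. They were C3, a complement gene, for Tbx3 (distance 0.0288), Synpo, an actin-binding protein gene, for Tbx15 (0.0457), Fam20a for Tbx20 (0.0505) and Six2, a homeobox gene, for Tbx1 (0.234). Six2 had 3001 and 3155 counts in wt cells against 7 and 2 in Top2β-null cells. With 2 genotypes, this distance mostly reflects the size of the difference between them.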

How the data were processed

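Total RNA of 2 wt and 2 Top2β-null MEF cell libraries was analysed. The deposited values are counts: the authors aligned trimmed paired-end reads to mm10 (STAR, multiple alignments kept) and counted reads over Gencode genes and RepeatMasker families with TEtranscripts, without normalization. Whether shared reads were split and which strand setting was used is not given in the sources used here.

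Groups came from the sample titles. Of the gene identifiers, 54495 matched GENCODE M21 (GRCm38), which gave symbols, positions and exon lengths. The filter asked for 10 counts or more in 2 or more libraries and kept 25085 genes and 1481 repeat families. These 26566 features were fitted together with edgeR 4.0.16 in R 4.3.3 (TMM factors, quasi-likelihood test, genotype alone in the model), with Benjamini-Hochberg adjustment across the whole table. Standard errors were obtained as the size of the log2 fold change over the square root of F. The calls used the limits that the authors applied to DESeq2 results. The spread between replicates exceeded counting noise: chi-square divided by its degrees of freedom was 3.65 for wt and 5.07 for Top2β-null. The intervals and floors cover counting error only, since reads without molecular identifiers are not independent molecules.

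The members and the lists of T-box genes, partners, targets and markers were chosen with earlier results of these data known. The named genes are all members, the other T-box genes tested, called genes of the lists and of the neighbourhood, and 1 gene of like profile for each called member; the choice of further genes of the lists and neighbourhood was made with their values in view. The fits were tested on simulated data. Alternatives were DESeq2 1.42.0, total-count scaling, TMM factors without repeat families, other filters on low counts, the replicate number as a block, the adjusted p as the only limit, and leaving out each library. A gene of the target list enters the counts and medians but is not reported here.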

Additional observations from a re-analysis of the deposited data

How the results depend on the processing

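Log2 fold changes of the 6 tested members kept their direction in every fit that held them. With all libraries kept, they also kept their call by the 3 limits. The fit with at least 100 counts in every library held neither Tbx1 nor Tbx2, and Tbx1 was also missing where a wt library was left out. Both passed the main filter through their wt libraries alone, so their values here are a description. Over fits with all libraries they ranged from 3.41 to 3.48 for Tbx3, 2.88 to 2.95 for Tbx15, -0.39 to -0.32 for Tbx18, -3.19 to -3.12 for Tbx20, -1.97 to -1.88 for Tbx2 and -10.2 to -10.0 (fitted) for Tbx1. With each library left out they ranged from 3.35 to 3.50, 2.84 to 2.92, -0.43 to -0.36, -3.23 to -3.15, -3.28 to -1.25 and -13.3 to -9.12, in the same order. The last range, that of Tbx1, covers only the fits without a Top2β-null library. The range was widest for Tbx1 and Tbx2, and its cause was not tested. At this depth no difference of Tbx4 or Tbx5 was detectable. Without Top2β-null replicate 1 no Tbx1 count remains in that genotype. The difference in the log2 ratio of Tbx15 to Tbx18 stayed between 3.24 and 3.32.

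The number of members called lower was 2. It was 1 with at least 100 counts in every library, which removes Tbx1 and Tbx2, and 1 to 2 with each library left out, because Tbx1 then has at least 10 counts in a single library when a wt library is missing. With the adjusted p as the only limit it was 4. That limit also gave 2 other T-box genes higher, and 7 partners and targets higher and 9 lower, against 4 and 4. DESeq2 gave the main counts for all of these.

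The labels number the replicates of each genotype. In the fit with a replicate block, Tbx3 was at 3.41, Tbx15 at 2.88, Tbx20 at -3.19, Tbx2 at -1.93 and Tbx1 at -10.1 on the log2 scale, and no call on a member changed. The correlation between deviations of libraries with equal numbers was 0.0207 (17952 features), and nothing in the labels says that the numbers pair the libraries. The median log2 fold change of all genes was between -0.015 and 0.064 over the scalings and filters.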
